A study of Rattus norvegicus with 27 samples.

Results

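Astrocytes are the glial cells that surround synapses and blood vessels. They clear glutamate and GABA, buffer ions, move water, supply glutamine and lactate and secrete lipoproteins and matrix proteins. Each of these jobs has well known genes, and 32 of them were followed here in the medial prefrontal cortex (mPFC) of resting rats. The 32 genes were taken by symbol from a table of 36865 gene rows. They fall into 10 roles: 2 intermediate filaments (Gfap, Vim), 3 metallothioneins (Mt1, Mt2A, Mt3), 8 transporters and channels (Aqp4, Slc1a2, Slc1a3, Slc4a4, Slc6a11, Slc7a11, Slc25a18, Atp1b2), 2 gap junction proteins (Gja1, Gjb6), 2 proteins of a membrane complex (Mlc1, Hepacam), 4 enzymes (Aldh1l1, Aldoc, Glul, Plpp3), 2 receptors (Fgfr3, Ntsr2), 2 nuclear regulators (Sox9, Id3), 4 secreted proteins (Clu, Cst3, Sparcl1, Apoe) and 3 cytosolic proteins (S100b, Fabp7, Ndrg2). Gfap and Vim rise when astrocytes become reactive. Metallothioneins bind zinc and copper, and Mt1 and Mt2A are induced by metals and glucocorticoids. Vim is also made by vessel wall cells, fibroblasts and macrophages, and Apoe and Cst3 also by microglia.

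The study looked for molecular correlates of trait anxiety. All 27 libraries form 1 group: outbred adult male Wistar rats with no genetic change, tested repeatedly in the elevated plus-maze, light-dark and open field, and killed directly from the home cage. Their treatment label reads learned helplessness, and their protocol label also lists acoustic startle and fear conditioning, which the study's methods give for rats of another strain. Each library is bulk RNA of the mPFC of 1 rat, so fewer astrocytes and less RNA per astrocyte cannot be told apart. The libraries are named by the numbers in their labels, and anxiety scores were not used here.

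The total count per library was between 4907255 and 12771309, with a median of 8168801. The 16 libraries numbered up to 31 held at most 8568317 counts and the 11 numbered from 32 at least 9404220. This split of the library numbers, called the block below, is no group of the study, and the labels do not say what it is. The rats came from more than 1 cohort, and cohort or anything else that changed with the numbers cannot be told apart from depth. Library 3 stood apart: it was the highest of all libraries in 19.8% and the lowest in 19.9% of 11730 genes (those with 10 or more counts per library on average, here called the tested genes). Its summed oligodendrocyte markers (12 genes) reached 66992 normalized counts against a median of 30599 over all libraries, and its summed neuron markers (12 genes) were the lowest, at 62462 against a median of 76666. Library 5 was next in oligodendrocyte markers, at 46118, and had the highest sum of 39 further astrocyte genes, 52795 against a median of 42520. Where leaving out libraries 3 and 5 changed a call or moved a value by much, the value without them is given. All 12 neuron, 12 oligodendrocyte and 10 microglia markers were among the tested genes, as was 1 of 5 markers of choroid plexus and ependyma.

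Of the 32 astrocyte genes, 31 had counts in every library. Hepacam, whose protein anchors Mlc1 at astrocyte contacts, was listed at 0 in all 27 libraries. A count of 0 allows a share of up to 6.11e-05% of the counts in the smallest library and 2.35e-05% in the largest. These limits cover counting error only. How reads of this gene were assigned is not given in the sources used here, and it entered no further result. The 31 genes together took 1.74% ± 0.165 (SD, n = 27) of all counts. The share was lowest at 1.53%, had a median of 1.71% and was highest in library 3, at 2.23%. Levels of different genes are not compared below, because no transcript lengths were used.

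The 3 metallothionein genes lie together on chromosome 19 in the RefSeq annotation of the assembly GRCr8, all on the minus strand, and their 250 bases before the transcription start are shown because these short regions hold the metal response elements through which zinc induces Mt1 and Mt2A. The capitals mark the core of this element, searched as TGCACNC and TGCGCNC on both strands. The stretches are chr19:10832976-10833225 for Mt1, chr19:10838709-10838958 for Mt2A and chr19:10856081-10856330 for Mt3, each written 5′ to 3′ on the strand of the gene.
Mt1: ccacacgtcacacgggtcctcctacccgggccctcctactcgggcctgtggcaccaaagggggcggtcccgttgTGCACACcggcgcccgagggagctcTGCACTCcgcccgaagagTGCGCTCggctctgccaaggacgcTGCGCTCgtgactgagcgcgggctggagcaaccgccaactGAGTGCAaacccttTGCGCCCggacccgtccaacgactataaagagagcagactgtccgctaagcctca
Mt2A: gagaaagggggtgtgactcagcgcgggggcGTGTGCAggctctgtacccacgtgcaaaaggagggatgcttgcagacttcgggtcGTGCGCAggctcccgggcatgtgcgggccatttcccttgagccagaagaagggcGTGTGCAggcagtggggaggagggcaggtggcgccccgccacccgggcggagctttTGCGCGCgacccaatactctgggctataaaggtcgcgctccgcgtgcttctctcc
Mt3: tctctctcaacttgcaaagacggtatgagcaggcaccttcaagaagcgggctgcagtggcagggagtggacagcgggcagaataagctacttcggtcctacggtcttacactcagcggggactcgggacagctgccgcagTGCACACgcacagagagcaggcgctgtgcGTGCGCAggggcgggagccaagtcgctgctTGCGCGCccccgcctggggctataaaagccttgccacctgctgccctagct
The core was found 6 times before Mt1, 4 times before Mt2A and 3 times before Mt3. Of 27456 rat promoters of this length, 21.2% held at least 1 match, 1.25% at least 3, 0.277% at least 4 and 0.0219% at least 6. Of the 30 astrocyte genes with a promoter in the table, 11 held at least 1 match. A match is a description of letters and not a measured binding site.

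All 31 genes varied between libraries, each of 1 rat, by more than counting allows. A chi-square dispersion test of the raw counts, against a Poisson spread at each library's depth, called 31 of 31 at an adjusted p under 0.05, beside 89.8% of the 11730 genes tested. The members' share lies near that background, so size of spread says more than the call. The SD of log2(normalized count + 1) over libraries had a median of 0.20 among the 31 genes and 0.19 among all tested genes. Among genes averaging 1000 normalized counts or more, the median SD was 0.18 for 18 astrocyte genes and 0.13 for all 2048 genes of that level.

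The 2 filament genes differed most in how they varied. Gfap (NCBI gene 24387), the main filament protein of astrocytes, had a lowest value of 2475, a median of 3299 and a highest of 5098 normalized counts. It averaged 3435 ± 664 (SD, n = 27), and its highest libraries were 35 and 3. Vim (NCBI gene 81818) ran from 877 over a median of 2312 to 9386 normalized counts, a 10.7-fold range. Its mean was 3166 ± 2127 (SD, n = 27). Its SD on the log2 scale, 0.96, was at the 98.9th percentile of all tested genes, against 0.27 and the 70.0th percentile for Gfap. Of the variance of Vim, 0.0808% was the part that counting alone would give. The highest values of Vim were 9386 in library 3 and 6667 in library 24, and the lowest 877 in library 34 and 881 in library 39.

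Among the metallothioneins, spread over all libraries was widest for Mt1. Mt1 ran from 40.8 over a median of 73.7 to 191 normalized counts, with a mean of 79.6 ± 27.7 (SD, n = 27). Library 3 held the value of 191, and the next highest, 105, came from library 28. Without library 3 the SD was 16.7 normalized counts. The log2 SD of Mt1 was 0.42 over all libraries, 0.52 up to 31 and 0.21 from 32, and that of Mt2A was 0.26 in each of these 3 sets, so that the order turned in the libraries from 32. Mt2A ran from 160 over 212 to 358 normalized counts (224 ± 45.1, SD, n = 27), highest in library 53. Mt3, the brain form, ran from 2914 over 3513 to 5652 (3632 ± 538, SD, n = 27), again highest in library 3. All 3 genes were lowest in library 12. Mt1 and Mt2A are close copies, and reads shared between them may have been split or dropped by the authors' counting, so their separate values are uncertain.

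The transporters and channels ranged from wide to narrow spread, and Slc4a4 and Slc1a2 were the widest on the log2 scale. The glutamate transporter Slc1a2 (GLT-1) ran from 155 over a median of 278 to 638 normalized counts, with a mean of 306 ± 130 and an SD on the log2 scale of 0.58. The sodium bicarbonate cotransporter Slc4a4 ran from 38.2 over 102 to 213 (105 ± 43.1, log2 SD 0.63) and was lowest in library 3 and highest in library 5. The GABA transporter Slc6a11 (GAT-3) ran from 121 over 229 to 393 (224 ± 57.6, log2 SD 0.38), with the same libraries at its ends. These 3 genes lay at percentiles 95.2, 96.2 and 83.6 of spread over all genes. Without libraries 3 and 5 their log2 SDs were 0.58, 0.55 and 0.31. The other glutamate transporter, Slc1a3 (GLAST), ran from 4313 over 6071 to 8539 (6070 ± 840) with a log2 SD of 0.20. The water channel Aqp4 ran from 2196 over 3063 to 4576 (3254 ± 580), highest in library 5, and its log2 SD of 0.26 lay between those of Slc6a11 and Slc1a3. In the libraries from 32 the log2 SD was 0.22 for Aqp4 and 0.25 for Slc6a11. The cystine/glutamate exchanger Slc7a11 was at 978 ± 132, the mitochondrial glutamate carrier Slc25a18 at 815 ± 90.03 and the sodium pump subunit Atp1b2 at 4230 ± 440, and their log2 SDs were between 0.15 and 0.20.

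The junction and membrane genes were moderate in spread. Gja1 (connexin 43), the main astrocyte connexin, ran from 2869 over 3544 to 4967 normalized counts (3618 ± 408). Gjb6 (connexin 30) ran from 302 over 446 to 642 (453 ± 93.3) and its log2 SD of 0.30 was wider than the 0.16 of Gja1. Mlc1, a membrane protein of perivascular end feet, ran from 2333 over 3062 to 4294 (3135 ± 419). Among the enzymes, Aldh1l1, a folate enzyme used as a pan-astrocyte marker, varied most (202 ± 35.2, log2 SD 0.24) and the glycolytic enzyme Aldoc least (8006 ± 718, 0.12). Among the secreted proteins the cystatin Cst3 varied most (14005 ± 1775, 0.17) and the matrix protein Sparcl1 least (19586 ± 1410, 0.11). Over all 27 libraries Sparcl1 was also the least variable of the 31 genes, but without library 3 Aldoc and Clu (log2 SD 0.10 each) lay below Sparcl1 (0.11). The fatty acid binding protein Fabp7 (404 ± 96.9, 0.32) led the cytosolic proteins and Ndrg2 (8720 ± 1134, 0.18) was the steadiest of them. Ntsr2, a neurotensin receptor, had a log2 SD of 0.20 and the growth factor receptor Fgfr3 of 0.14. For the nuclear regulators these were 0.24 for Sox9 and 0.18 for Id3. All values are mean ± SD over 27 libraries.

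**Figure D1:**
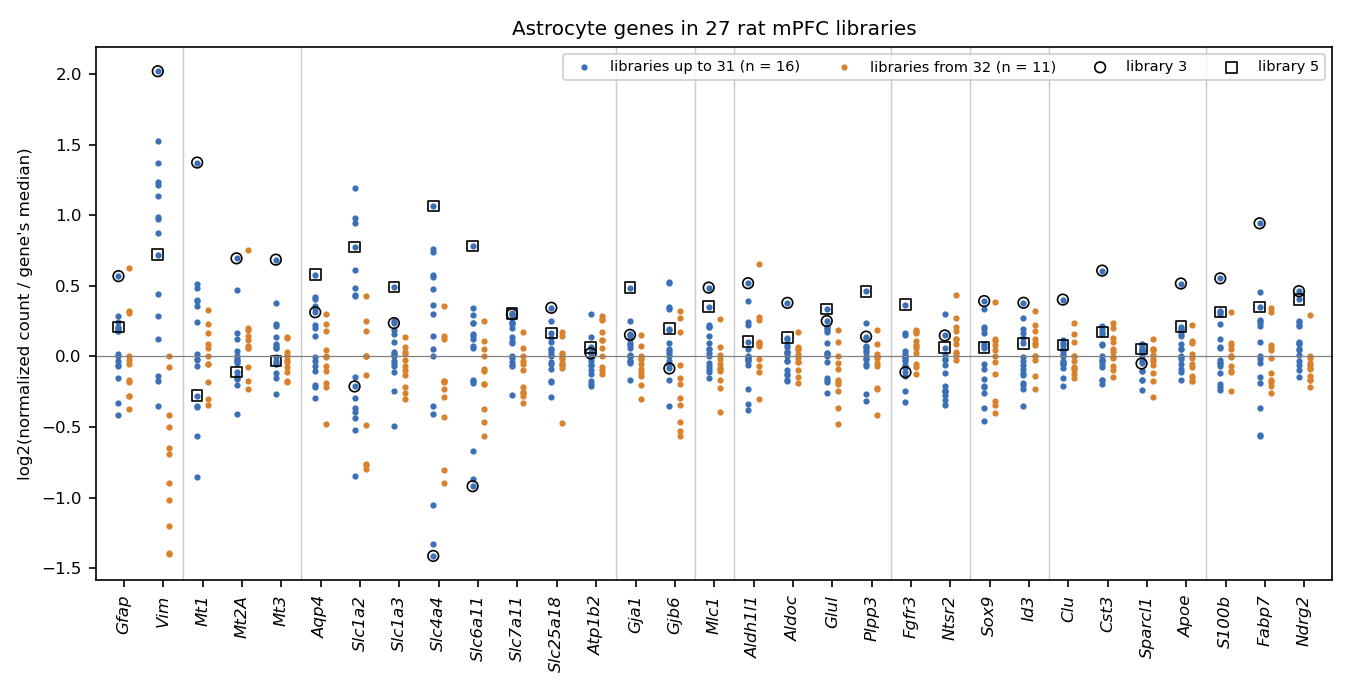
Level of 31 astrocyte genes in 27 libraries, each point 1 library, as log2 of the normalized count over the gene's median (y axis), with genes ordered by role and roles parted by grey lines. Blue points are the 16 libraries up to 31, orange points the 11 from 32, circles library 3 and squares library 5; Vim has the widest range, 10.7-fold, and most of its orange points lie under the blue ones.

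The high values were shared by a few libraries. Library 3 was the highest of 27 in 14 of the 31 genes, among them Vim, Mt1, Mt3, Mlc1, Apoe, Clu and S100b, and the lowest in 2, Slc4a4 and Slc6a11. Library 5 was the highest in 9 genes, among them Aqp4, Slc1a3, Gja1, Glul and Plpp3, beside 4.0% of all genes, and 28 of 31 genes were above their mean in it. Library 35 was the highest in 4 genes, beside 3.89% of all genes, and library 51 the lowest in 8, beside 6.88%. Without library 3 the summed level of the 31 genes went from 147612 ± 14286 to 145874 ± 11287 normalized counts, and without libraries 3 and 5 to 144858 ± 10234.

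Between the blocks, 4 astrocyte genes differed in edgeR's quasi-likelihood test over 11716 genes at an adjusted p under 0.05. Higher in the libraries from 32 was 1 gene, Ntsr2, beside 8.85% of all genes, and lower were 3, Vim, Slc7a11 and Ndrg2, beside 9.18% of all genes. Vim was at 4347 ± 2008 normalized counts in the 16 libraries up to 31 and at 1449 ± 490 in the 11 from 32. Its log2 change was -1.59 ± 0.23 (SE), with an edgeR adjusted p of 2.4e-05. The blocks overlapped, since the lowest library up to 31 held 1813 and the highest from 32 held 2312 normalized counts. Slc7a11 was at 1039 ± 117 and 889 ± 102 (log2 change -0.22 ± 0.06, edgeR adjusted p = 0.012). Ntsr2 was at 1320 ± 175 and 1561 ± 154 (log2 change 0.24 ± 0.06, edgeR adjusted p = 0.0077). For Ndrg2 the log2 change was -0.18 ± 0.06 (edgeR adjusted p = 0.037), and without library 3 its adjusted p was 0.057. The median log2 change was -0.10 over the 31 genes and -0.00062 over all genes. Of 39 further astrocyte genes tested, 3 were higher (Hes5, Paqr6, Slc6a9) and 1 lower (Gpc5), beside the same 8.85% and 9.18% of all genes. Without library 3 these calls came to 7, beside 10.4% higher and 8.44% lower of all genes, so they lay near that background. Of 15 reactive astrocyte genes tested, Cd44 (log2 change -0.76) and Lgals3 (-1.03) were lower, both of which microglia and macrophages also make.

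Across rats, the astrocyte genes tended to go up and down together. Over the 465 pairs of the 31 genes, Spearman's rho had a median of 0.32 and was positive in 400 pairs. Over all pairs of the 11730 genes the median was -0.0049. In permutation tests of 100000 permutations, adjusted over the 465 pairs, 134 pairs were positive and 1 was negative at an adjusted p under 0.05. The lowest rho called was 0.470, and 5.61% of all gene pairs reached it, against 28.8% of the astrocyte pairs. All genes share library, depth and dissection, which bears on every pair. With the block regressed out 157 pairs were positive and 4 negative. In the libraries up to 31 there were 68 positive pairs and in those from 32 there were 9, while 131 of the 134 pairs had a positive rho in both blocks. The 134 were picked over these same libraries, so that count is largely set by the choice and is no separate support. Without library 3, 115 pairs were positive, and without libraries 3 and 5, 81, of which 76 were among the 134.

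**Figure D2:**
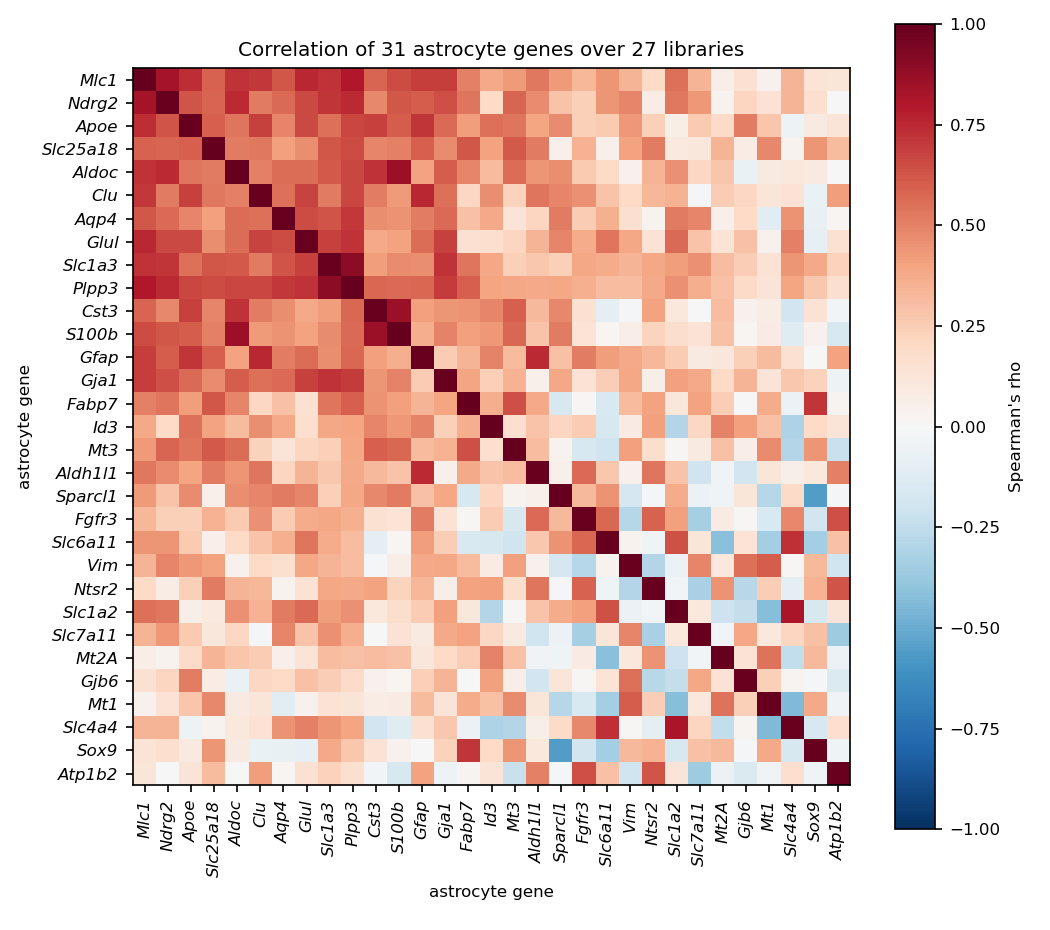
Spearman's rho over 27 libraries for every pair of 31 astrocyte genes (both axes), ordered by each gene's median rho to the other 30, from 0.513 for Mlc1 down. Red is a positive and blue a negative rho; the upper left block is red throughout, and Mt1, Mt2A, Sox9, Atp1b2 and Slc4a4 lie at the pale end, with Mt3 in the middle.

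The genes nearest to all others were Mlc1, with a median rho of 0.513 to the other 30, Ndrg2 (0.506) and Apoe (0.502). Farthest were Atp1b2 (0.071) and Sox9, Slc4a4 and Mt1 (each 0.12). This order depended on the block. With the block regressed out the nearest were Ndrg2 (0.550), Mlc1 (0.545), Plpp3 (0.534) and Clu (0.508), Ntsr2 went from 0.245 to 0.493, and Apoe (0.463) was 10th. The farthest were then Slc7a11 (0.063), Gjb6 (0.074) and Mt1 (0.097), and Atp1b2 was at 0.165. Without libraries 3 and 5 Mlc1 (0.478), Plpp3 (0.454) and Ndrg2 (0.438) were nearest, and Sox9 (0.015) and Atp1b2 (0.030) farthest. By role, the 6 pairs of secreted proteins had a median rho of 0.501 and the 6 pairs of enzymes of 0.500. The 28 pairs of transporters had a median of 0.335 and a range from -0.354 to 0.813. Filament and transporter genes met at a median of 0.298 (16 pairs), or 0.167 with the block regressed out. Metallothionein and transporter genes met at a median of -0.029 (24 pairs), the lowest median between any pair of roles, but at 0.114 in the libraries from 32, where others were lower. These medians are descriptions with no test.

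The highest rho was that of Slc1a3 with Plpp3, a lipid phosphatase, at 0.894 (permutation p = 1e-05, adjusted p = 0.00052). This p is the smallest that the permutations can give. The corresponding Pearson's r was 0.938 (permutation p = 1e-05), 0.912 without the 2 libraries farthest from the median of Slc1a3, and rho was 0.903 and 0.882 within the blocks. Cst3 and the calcium binding protein S100b had a rho of 0.860 (permutation p = 1e-05, adjusted p = 0.00052), with an r of 0.860, or 0.777 without the 2 farthest libraries, and a rho of 0.897 and 0.618 within the blocks. Aldoc and S100b had a rho of 0.858 (permutation p = 1e-05, adjusted p = 0.00052), with an r of 0.893, or 0.832 without the 2 farthest, and 0.859 and 0.855 within the blocks. Slc1a3 also went with Glul, the glutamine synthetase that uses the glutamate taken up (rho = 0.680, permutation p = 0.00013, adjusted p = 0.0020, r = 0.681, or 0.649 without the 2 farthest). The rho of this pair was 0.635 and 0.818 within the blocks.

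The 3 most variable transporters, chosen here after their values were seen, had positive rho values with each other. Slc1a2 and Slc4a4 had a rho of 0.813, Slc4a4 and Slc6a11 of 0.727 and Slc1a2 and Slc6a11 of 0.637. Without libraries 3 and 5 these were 0.825, 0.656 and 0.617. Up to 31 they were 0.856, 0.80 and 0.703, and from 32 they were 0.482, 0.400 and 0.309. Between the glutamate transporters Slc1a2 and Slc1a3, rho was 0.420 (permutation p = 0.030, adjusted p = 0.085, r = 0.426) and 0.335 and 0.300 within the blocks. Aqp4 and Slc4a4 had a rho of 0.451 (permutation p = 0.019, adjusted p = 0.060, r = 0.436), and without library 3 rho was 0.557 with an adjusted permutation p of 0.023. The genes closest to Slc1a2 among 9899 genes averaging 50 or more raw counts per library were Prex2 (rho 0.911), Mib1 (0.866), Mfap3l (0.861), Map2 (0.860) and Ppp1r9a (0.849). Each had a rho of at least 0.645 within both blocks. Slc4a4 ranked 19th and Slc6a11 229th in closeness to Slc1a2. Those closest to Slc1a3, besides Plpp3, were Glud1 (0.866), Mmd2 (0.821), Mfge8 (0.804), Zcchc24 (0.799) and Gprc5b (0.789), each at least 0.664 within both blocks. Nearest genes, here and below, were ranked over all libraries, so their values within the blocks are descriptions and no separate support.

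Gja1 and Gjb6, which form the gap junctions of astrocytes, had a rho of 0.338 (permutation p = 0.086, adjusted p = 0.172, r = 0.345). It was -0.132 in the libraries up to 31 and 0.355 in those from 32. The Mlc1 and Hepacam pair has no value, because Hepacam is listed at 0. Among the other 30 astrocyte genes, Gja1 was closest to Slc1a3 (rho 0.726) and Gjb6 to Vim (0.554). With the block regressed out Gja1 was closest to Plpp3 (0.775) and Gjb6 to Id3 (0.539). The genes closest to Gjb6 among the 9899 were Fibin (0.820), Emp1 (0.794), Acta2 (0.788), Colec12 (0.783) and Col3a1 (0.783), each at least 0.656 within both blocks. Acta2 marks smooth muscle of vessels and Col3a1 fibroblasts.

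The correlation of the filaments did not pass the test. Gfap and Vim had a rho of 0.382 (permutation p = 0.050, adjusted p = 0.116), with an r of 0.390, or 0.420 without the 2 libraries farthest from the median of Gfap. Within the blocks rho was 0.409 and 0.455. Gfap had a higher rho with Clu (0.751) and Aldh1l1 (0.743), and with Aqp4 it was 0.510 (permutation p = 0.0073, adjusted p = 0.031, r = 0.528, or 0.476 without the 2 farthest). For Gfap and Aqp4, rho was 0.488 and 0.518 within the blocks, and without library 3 it was 0.482 with an adjusted permutation p of 0.053. Among the genes closest to Gfap outside the 32 were Itpr2 (0.805), Tgfbr2 (0.760), Rhoc (0.753) and Septin2 (0.751), each at least 0.573 within both blocks. Vim ranked 559th in closeness to Gfap. Closest to Vim were Clic1 (0.958), Mrc1 (0.951), a receptor of brain border macrophages, Tagln2 (0.949), Tubb6 (0.949) and Cd44 (0.938), and each of these 5 had a rho of at least 0.736 within both blocks.

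Over all libraries Vim and Mt1 were each other's closest astrocyte gene, whereas without library 3 Vim was closest to Gjb6 (rho 0.627). The rho of Vim and Mt1 was 0.604 over 27 libraries (permutation p = 0.00095, adjusted p = 0.0085), with an r of 0.610, or 0.458 without libraries 3 and 24. This pair was chosen after its values were seen. Within the blocks rho was 0.95 up to 31 and 0.736 from 32, and with the block regressed out it was 0.878. Mt1 was at 83.3 ± 34.9 normalized counts up to 31 and at 74.2 ± 10.8 from 32, so the lower block level of Vim had no counterpart of its size in Mt1. With the mean score of 16 reactive astrocyte genes, rho was 0.745 for Vim, 0.651 for Mt1, 0.652 for Gjb6 and 0.590 for Gfap. It was 0.148 for Mt2A and 0.195 for Mt3, all as descriptions. Of 23 genes listed for this score, 16 averaged 10 or more counts and entered it. Cd44 and Emp1, among the genes nearest to Vim and Gjb6, are in it, so those values are partly built in. Library 24 was highest in this score and also in the meningeal fibroblast and mural (vessel wall) scores, and these were not tested apart.

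The metallothioneins had high mutual rho values in the first block and mixed ones in the second. Mt1 and Mt2A had a rho of 0.542 (permutation p = 0.0039, adjusted p = 0.021), with an r of 0.643, or 0.370 without libraries 3 and 12. Within the blocks rho was 0.782 up to 31 and 0.409 from 32. Mt1 and Mt3 had a rho of 0.475 (permutation p = 0.013, adjusted p = 0.046), with an r of 0.723, or 0.399 without the 2 farthest, and rho was 0.794 up to 31 and -0.655 from 32. For Mt2A and Mt3 it was 0.291 (permutation p = 0.14, adjusted p = 0.248, r = 0.561, or 0.472 without the 2 farthest), with 0.829 up to 31 and -0.464 from 32. Without library 3 the rho of Mt1 and Mt3 was 0.412 (adjusted permutation p = 0.103). The difference between the blocks was not tested. Closest to Mt2A were Dlx5 (0.684), Nt5e (0.658), Cxcl14 (0.620), Tmem107 (0.617) and Bcl10 (0.617). Cxcl14 had a rho of 0.85 up to 31 and 0.045 from 32, and the other 4 of at least 0.527 within both blocks.

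The lowest rho of all pairs was that of Sox9, a transcription factor of glial identity, with Sparcl1, at -0.560 (permutation p = 0.0031, adjusted p = 0.018). The r of this pair was -0.509, or -0.460 without the 2 farthest libraries, and rho was -0.503 and -0.673 within the blocks. Next were Mt1 with Slc4a4 (rho = -0.444, permutation p = 0.020, adjusted p = 0.063, r = -0.553, or -0.329 without libraries 3 and 12) and Mt1 with Slc1a2 (rho = -0.423, permutation p = 0.029, adjusted p = 0.082, r = -0.446, or -0.387 without the 2 farthest). With the block regressed out both had an adjusted permutation p under 0.05 (0.044 and 0.026). Within the blocks rho was -0.621 and -0.109 for Mt1 with Slc4a4, and -0.550 and -0.464 for Mt1 with Slc1a2.

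**Figure D3:**
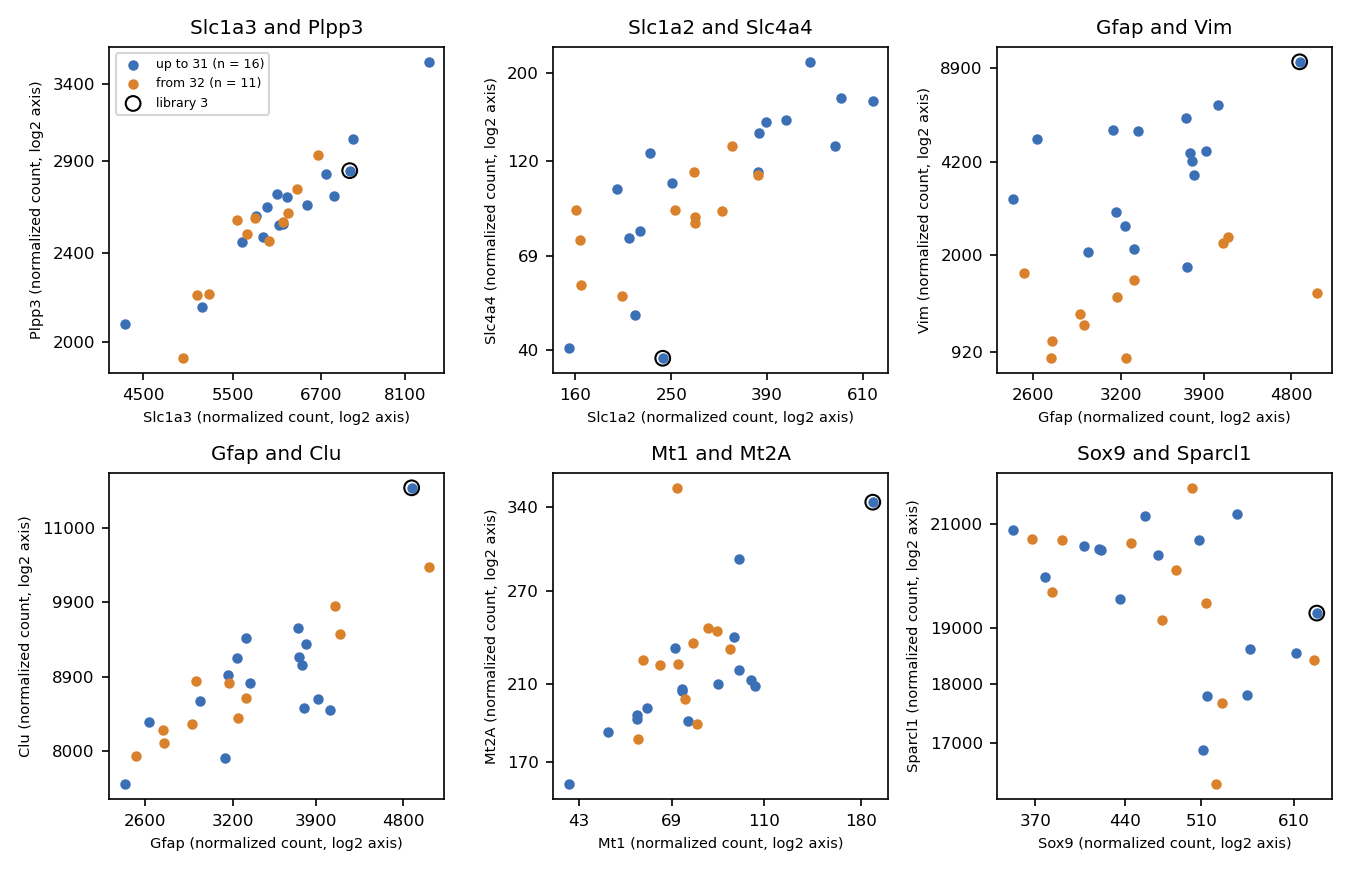
Normalized counts of 6 gene pairs in 27 libraries on log2 axes, blue for the 16 libraries up to 31, orange for the 11 from 32, with library 3 circled. Slc1a3 and Plpp3 lie along 1 line (rho 0.894), for Gfap and Vim (rho 0.382) most orange points lie under the blue ones, library 3 is far out for Mt1, and Sox9 and Sparcl1 slope downward (rho -0.560).

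The genes were then set against scores of other cell types, each the mean z score of that type's markers. The score entered edgeR's quasi-likelihood test over all genes, and values are log2 changes per SD of the score ± SE. With the score of 10 microglia genes, tested after the data had been seen, 12 of 31 astrocyte genes were higher and 0 lower, beside 0.798% higher and 0.0416% lower of all 12027 genes. The 12 were Plpp3 (0.15 ± 0.02, edgeR adjusted p = 7.9e-05), Mlc1 (0.16 ± 0.02, 0.00018), Slc1a3, Ndrg2, S100b, Aldoc, Aqp4 (0.18 ± 0.04, 0.013), Gja1, Gfap (0.17 ± 0.04, 0.027), Apoe, Cst3 and Glul. At an unadjusted p under 0.05, 21 were higher and 0 lower, and the share of all genes at that cutoff is not given here. DESeq2's Wald test called 14 higher and 0 lower, beside 1.72% higher and 0.255% lower of all 9406 genes. All 31 log2 changes were positive, with a median of 0.11 against 4.45e-05 over all genes. Of 39 further astrocyte genes, 9 were higher, among them Gpr37l1 and Acsbg1, and all 39 were positive. Library 35 had the highest microglia score and library 5 the next. Without library 3, 9 of the 12 were called, beside 0.557% higher of all genes, and without libraries 3 and 5 there were 4, Aldoc, Mlc1, Plpp3 and S100b, beside 0.224%. The rho of Mlc1 with the score was 0.871 and 0.936 within the blocks. Over the 31 genes the median rho with the microglia score, 0.506, was the highest among the scores of other cell types. Next was the score of 5 oligodendrocyte precursor genes (median 0.345, positive for 28 of 31), which was not fitted in edgeR. The summed microglia markers ran from 3078 to 4614 normalized counts, and their part in these values was not tested.

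With the score of 12 neuron genes, 11 astrocyte genes were lower and 0 higher, beside 12.4% lower and 11.7% higher of all 12108 genes. They were Vim (-0.60 ± 0.12, edgeR adjusted p = 0.00077), Mt1 (-0.29 ± 0.06, 0.00056), Fabp7 (-0.23 ± 0.04, 0.00020), Sox9 (-0.17 ± 0.03, 0.00093), Mt3 (-0.13 ± 0.03, 0.00060), Apoe, Slc25a18, Cst3, Ndrg2, S100b and Id3. Of the 8 transporters and channels Slc25a18 alone passed. Among the other 7, Slc1a2 had a log2 change of 0.21, Slc4a4 of 0.17, Slc6a11 of 0.07, Atp1b2 of 0.0045, Aqp4 of -0.03, Slc1a3 of -0.09 (adjusted p = 0.056) and Slc7a11 of -0.09 (adjusted p = 0.057) in the edgeR test. At an unadjusted p under 0.05, 18 were lower and 0 higher, and the share of all genes at that cutoff is not given here. DESeq2's Wald test called 11 lower and 0 higher, beside 11.2% lower and 12.3% higher of 12917 genes. Library 3 had the lowest neuron score. Without it 3 genes were lower, Fabp7, Sox9 and Vim, beside 4.13% of all genes. Without libraries 3 and 5 there were 4, the same 3 and Mt1, beside 4.07%. With the block added 12 genes were lower, beside 14.2%, and Slc1a2 was higher, beside 13.1%.

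With the score of 12 oligodendrocyte genes, 1 astrocyte gene was higher, Fabp7 (0.19 ± 0.05, edgeR adjusted p = 0.020), which oligodendrocyte precursors also make, beside 1.37% of all 12027 genes. None was lower, beside 0.266%, also at an unadjusted p under 0.05 and in DESeq2's Wald test, which called 4 higher, beside 1.88%. At an unadjusted p under 0.05, 14 were higher, and 6 without library 3. The share of all genes at that cutoff is not given here, so these counts have no background. The rho with this score was positive for 31 of 31 genes up to 31 and for 7 of 31 from 32, for Gfap 0.682 and -0.655, and the difference between the blocks was not tested. Without library 3, Fabp7 had an adjusted p of 0.363, and with the block added 7 genes were higher, beside 2.29% of all genes. With the score of 11 meningeal fibroblast genes, Gjb6 alone was higher (0.22 ± 0.04, edgeR adjusted p = 0.00016), beside 2.6% of all 11921 genes, and none was lower, beside 0.0168%, although 4 were lower at an unadjusted p under 0.05. The share of all genes at that cutoff is not given here. DESeq2's Wald test likewise called 1 higher and 0 lower, beside 2.54% higher and 0.0472% lower of 14820 genes. Connexin 30 is also made by meningeal cells. Gjb6 passed in each of the alternatives run, among them without libraries 3 and 5. The summed meningeal markers ran from 1078 to 17796 normalized counts, and their part in the level of Gjb6 was not tested.

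**Figure D4:**
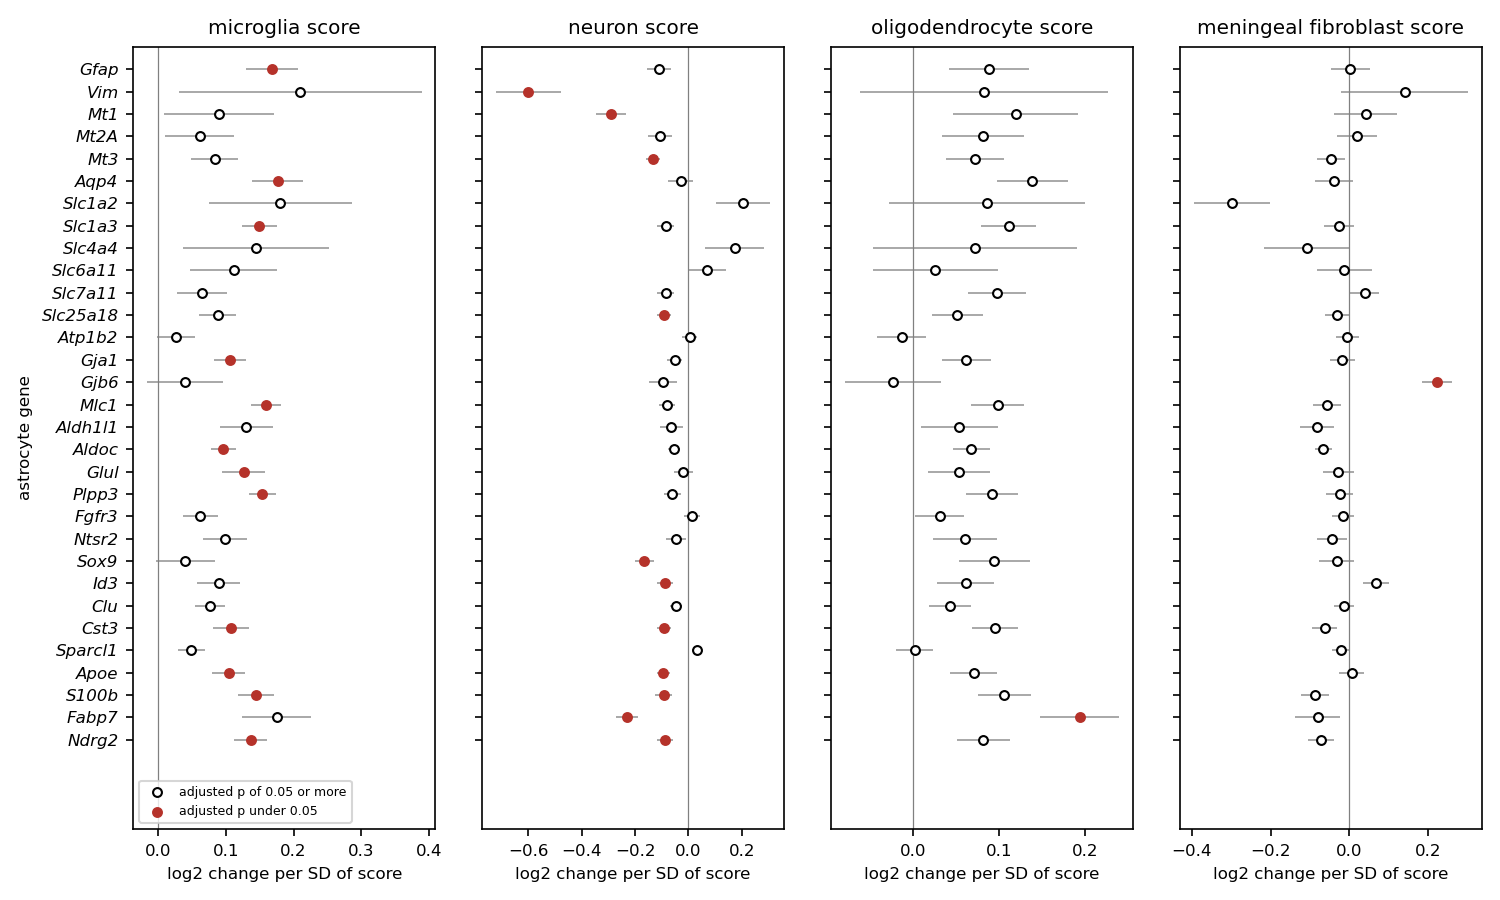
Log2 change (x axis) of each of 31 astrocyte genes (y axis) per SD of the microglia, neuron, oligodendrocyte and meningeal fibroblast score, with bars of 1 SE, from edgeR over all genes and 27 libraries. Filled red points passed an adjusted p under 0.05: 12 to the right for microglia, 11 to the left for neurons, Fabp7 for oligodendrocytes and Gjb6 for meningeal fibroblasts.

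Glucocorticoids induce Mt1 and Mt2A, and all 3 metallothionein genes were compared with 13 glucocorticoid-responsive genes. Of 39 relations, 1 passed in permutation tests adjusted over the 39: Mt1 with the kinase gene Sgk1 (rho = 0.638, permutation p = 0.00047, adjusted p = 0.018, r = 0.678, or 0.521 without the 2 farthest libraries). With the block regressed out 5 positive relations and 1 negative passed: Mt1 and Mt2A with Sgk1 and Nfkbia, Mt2A with Ddit4, and Mt3 with Hif3a (rho = -0.601). In the libraries up to 31 there were 5, all positive. Of all 11729 other genes, 1.01% had a rho with Mt1 at least as high as that of Sgk1. Within the blocks the rho of Mt1 and Sgk1 was 0.838 and 0.127, and without library 3 it was 0.595 with an adjusted permutation p of 0.065, so that 0 relations passed in the permutation tests (5 had an unadjusted p under 0.05). The median rho over the 13 genes was 0.183 for Mt1, 0.180 for Mt2A and -0.101 for Mt3. With the mean score of the 13 genes in the same edgeR test, no metallothionein passed (Mt1 0.14 ± 0.08, Mt2A 0.10 ± 0.05), and Gjb6 was the 1 of 31 genes that was higher (0.23 ± 0.04, edgeR adjusted p = 0.0014), beside 0.802% of all 11964 genes. None was lower, beside 0.00836%, also at an unadjusted p under 0.05 and in DESeq2's Wald test. Of the 11 meningeal genes, 9 were higher with this score too, and it was not tested apart from the meningeal score.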

How the data were processed

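RNA of the mPFC of 27 rats was sequenced as single reads, with a library for each rat. The values are raw counts of reads per NCBI gene ID, deposited by the authors without scaling, and the submitters' processing notes name Trimmomatic, STAR and HTSeq, with the genome build and strand setting not given in the sources used here. The paper names the NEBNext kit and a test battery, while the labels name TruSeq and a learned helplessness treatment. The members and lists were chosen with earlier results of these data known. Gene symbols came from RefSeq (assembly GRCr8) by exact gene ID for 27825 of 36865 rows, which hold 99.5% of counts, and no member was split over rows. Each rat is a separate animal, so p-values measure the spread between rats.

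Levels are counts divided by DESeq2 median-of-ratios size factors (DESeq2 1.42.0), and log values add a pseudocount of 1. Spread was tested by a chi-square dispersion test, and pairs by two-sided permutation tests of Spearman's rho and Pearson's r (100000 permutations, scipy 1.17.1). Block and scores were fitted by edgeR's quasi-likelihood test (edgeR 4.0.16, filterByExpr, TMM) over all genes, with Benjamini-Hochberg adjustment. The block split was drawn from library numbers. The marker lists exclude the 32 genes. The tests were tried on simulated data. Named genes were all filament, metallothionein, transporter, gap junction and membrane complex genes, the most and least variable gene of each other role, 10 pairs of related function, the 3 highest and 3 lowest pairs, up to 6 genes passing per score and direction, and the 5 nearest genes of Gfap, Mt2A and Slc1a3. Of these nearest genes, 1 is not reported here. The nearest genes of Vim, Slc1a2 and Gjb6 and the microglia score were added after the values were seen. Promoters are RefSeq stretches of GRCr8. Alternatives were edgeR's TMM, total counts, another pseudocount, DESeq2's Wald test, no filter on low counts, the block as a term, each block alone, and leaving out libraries 12 and 20, or, added after seeing the data, library 3 or libraries 3 and 5. Without molecular identifiers, limits from depth cover counting error only. Per-rat anxiety scores were not used here.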

Additional observations from a re-analysis of the deposited data

How the results depend on the processing

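No paired analysis was possible because all libraries form 1 group. The dispersion calls (31 genes) and the summed level kept their side or stayed within 1 SD under every alternative run. Against 135 pairs called over all libraries (134 positive, 1 negative), 82 pairs were called without libraries 3 and 5 (76 of the positive ones among the 134), 68 in the libraries up to 31 and 9 in those from 32, where fewer libraries enter. The relations of metallothioneins with glucocorticoid-responsive genes, 1 in the text, were 6 with the block regressed out, 2 without libraries 12 and 20, 5 up to 31, and 0 from 32, without library 3 and without libraries 3 and 5. Microglia score calls went from 12 to 4 without libraries 3 and 5 (further astrocyte genes from 9 to 5). Neuron score calls went from 11 to 3 without library 3 and 4 without libraries 3 and 5 (further astrocyte genes from 9 to 2 and 1, and 5 without libraries 12 and 20). Oligodendrocyte score calls went from 1 to 4 in DESeq2's Wald test, 7 with the block added and 0 without library 3 or without libraries 3 and 5 (further astrocyte genes from 3 to 6, 6 and, without libraries 3 and 5, 1). Meningeal score calls went from 1 to 2 without libraries 12 and 20, the added gene being Slc1a2 (log2 change -0.34). Block calls among further astrocyte genes went from 4 to 7 without library 3 or libraries 3 and 5. Of all genes, 10.4% were then higher and 8.44% lower without library 3, and 8.17% and 9.97% without libraries 3 and 5. The sign of rho turned for Mt1 and Mt3 (-0.655) and for Mt2A and Mt3 (-0.464) in the libraries from 32, and for Gja1 and Gjb6 (-0.132) in those up to 31. Of the single genes and pairs named, 274 values kept their direction and their side of the threshold, 58 kept their direction but no longer passed, 6 passed where they had not, and 3 turned in sign (those just given). The cause of these changes was not tested. At 4907255 to 12771309 counts, counting noise makes up the largest part of the variance in Fgfr3 (17.6%), Aldh1l1 (16.8%), Id3 (13.5%) and Mt2A (11.3%), and 5.89% in Slc4a4, which had the lowest count (25) of the 31 genes.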
